A study of Rattus norvegicus with 6 samples.

Results

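The genes described here are those whose rat symbol begins with Cfap, Ift, Bbs, Dnah, Dnai, Tctn, Arl13b, Ttc21, Ttc26 or Rsph, the name families of intraflagellar transport, the BBSome and the axoneme. They were taken from the coding probes by symbol, and 58 of the 13888 coding genes with a symbol on the array belong to them. The assembly's annotation holds 107 protein-coding genes with such symbols, and the rest had no mapped probe here. Where a gene has several probes the rule keeps the one with the highest mean signal, but each of these 58 genes had 1 probe with 1 spot, so no measured value chose a probe.

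The RNA came from H9c2 cells, a myoblast line derived from embryonic rat heart, and was read in 1 colour on Arraystar arrays for mRNAs and long non-coding RNAs made by Agilent. The H/R group, 3 samples, was put through hypoxia/reoxygenation: medium without serum and glucose, 1 h in 1% oxygen, 5% carbon dioxide and 94% nitrogen, then 3 h at normal oxygen. The control group, 3 samples, was kept at normal oxygen, and no genetic change or added agent is given for either group. Both groups were grown beforehand in DMEM with 4500 mg/L glucose, 10% serum, HEPES and antibiotics. The labels do not give the medium of the control cells during the experiment, so low oxygen, reoxygenation and the loss of serum and glucose cannot be told apart. They name no culture for any file, and their protocol text gives a mouse brain cortex as the source of the RNA, at odds with the rat line named in every other label.

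A cilium is a microtubule-based projection built on a basal body. Cargo moves along it by intraflagellar transport (IFT): the IFT-B complex travels outwards with kinesin-2, the IFT-A complex is needed for the return with dynein-2, and the BBSome carries membrane proteins out of the cilium. Many cultured cells that have left the cycle can form a single immotile primary cilium, which uses this transport machinery, whereas dynein arms, radial spokes and many proteins inside the doublet microtubules belong to the beating axoneme of airway, ependymal and sperm cells. A probe's RNA level shows neither whether a cilium was present nor how long it was. In a bulk sample, fewer cells that hold an RNA and less of it per cell cannot be told apart.

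By the file headers, replicates 2 and 3 of a group come from one slide position and from separate scans. The noise of individual spots around the mean of their probe was shared between these files (r = 0.919 to 0.926, across spots), against 0.569 to 0.692 in the 13 other pairs of files. They shared 36 spots flagged for uneven background, against at most 1 in other pairs, and their spots differed by a median of 0.0227 to 0.0231 on the log2 scale, against 0.123 to 0.158 for other pairs within a group. They differed by less than the noise between arrays, so each pair enters as 1 array and n is 2 arrays per group. Between 58.4% and 71.1% of non-control spots in a file were well above background, and 0 were saturated. The shares were 71.1% and 69.4% in H/R replicates 2 and 3, and 58.4% to 61.7% in the other files. The arrays lie on 1 slide and each position holds 1 group only, so the effects of position and treatment cannot be told apart, and p-values reflect nothing but the variation among these few arrays, possibly technical.

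Of the 58 genes, 48 were well above background in all 6 files. The 6 genes Ift57, Cfap107, Cfap276, Cfap95, Cfap97d1 and Rsph14 were well above background in 0 files. Dnai1 and Rsph9 were so in 2 of 3 H/R files and 0 of 3 control files, and 2 files can be scans of 1 array. These 8 were not tested, since a probe was tested only where all 3 files of at least 1 group were well above background. The remaining 50 were read from a limma fit over 15899 probes, with Benjamini-Hochberg adjustment over all of them and a threshold of 0.05. Cfap52 and Rsph4a entered through the H/R group, with 3 of 3 H/R files and 1 of 3 control files well above background.

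Of the 50 tested genes, 19 rose in H/R, 0 fell and 31 did not pass (adjusted p = 0.0585 to 0.822). In the same fit 16.2% of 10003 coding genes rose and 9.62% fell. Their fitted differences, H/R minus control, had a median of 0.31 on the log2 scale, against 0.07 over all coding genes tested, and 40 of 50 were positive. Among the 48 genes well above background in all 6 files, which leaves out Cfap52 and Rsph4a, 18 rose and 0 fell with a median of 0.31, against 1417 of 9421 such coding genes that rose and a median of 0.05. In 34 of the 50 every H/R file lay above every control file, against 38.2% of coding genes, and in 4 every H/R file lay below, against 27.9%. The 6 genes past both the threshold and a 2-fold rise were Dnai2, Cfap119, Ift70b, Cfap45, Cfap210 and, with a dim control signal, Cfap52; 4.56% of coding genes rose that far. At an unadjusted p under 0.05 in limma, 3 genes were lower, namely Rsph1, Dnai3 and Dnah1, and other scalings of the arrays called up to 2 of these as lower. These are descriptions of genes chosen by name with earlier results of these arrays known, and no test of the whole list was made.

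**Figure D1:**
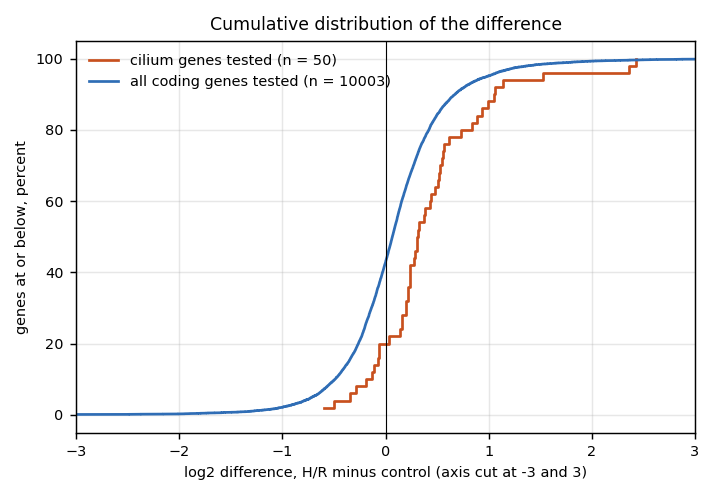
Cumulative share of genes (vertical axis, percent) at or below a given fitted log2 difference, H/R minus control (horizontal axis), for the 50 tested cilium genes and all 10003 coding genes tested. The curve of the cilium genes lies to the right, with medians of 0.31 and 0.07, and its top steps reach 2.43.

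Signals below are given as a percentage of the 75th percentile of the same array's probes, in the order of replicates 1, 2 and 3, and they compare files for 1 probe, not probes with each other. Among the IFT-B genes, 6 of 12 tested rose and none fell, against 16.2% and 9.62% of coding genes. Their median log2 difference was 0.46. Ift88, which encodes an IFT-B core subunit whose mouse mutants lack normal cilia, had 96.8, 112 and 112% in H/R files, against 56.6, 59.3 and 60.4% in control files. All 3 H/R files were higher than all 3 control files. The rise of Ift88 was 0.84 ± 0.12 in log2 units (with limma's moderated SE, n = 2 arrays per group, here and below), or 1.79-fold (limma adjusted p = 0.0114), and did not pass without the second H/R array (adjusted p = 0.0645). Ift46, another core subunit, had 503, 466 and 466% in H/R files, against 229, 278 and 282% in control files. The groups did not overlap, and control array 1 was the lowest. Ift46 rose by 0.93 ± 0.13 (1.91-fold, adjusted p = 0.0126), and did not pass without the first or the second H/R array (adjusted p = 0.0714 and 0.0606).

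Ift70b encodes a tetratricopeptide-repeat subunit of IFT-B and had 101, 94.5 and 94.9% in H/R files, against 41.1, 48.0 and 47.6% in control files. Its 3 H/R files again lay above its 3 control files. It rose by 1.14 ± 0.12 (2.21-fold, adjusted p = 0.00607). The closely related Ift70a2 had 4.44, 3.69 and 3.96% in H/R files, against 2.80, 2.92 and 2.77% in control files, a rise of 0.55 ± 0.11 (adjusted p = 0.0301). Probes of such near-identical copies can bind each other's RNA, so the share of each gene is uncertain. Ift22, a small GTPase-like subunit, had 20.5, 18.2 and 18.2% in H/R files, against 10.1, 13.5 and 13.4% in control files, and rose by 0.73 ± 0.17 (adjusted p = 0.0391). Ift80, a subunit whose human mutations cause a skeletal ciliopathy, had 205, 201 and 202% in H/R files, against 145, 155 and 155% in control files, and rose by 0.44 ± 0.09 (adjusted p = 0.0335). The groups of both genes were apart, with less than 2-fold between them.

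The other 6 IFT-B genes tested did not pass. Ift27, a small GTPase subunit, had 573, 578 and 565% in H/R files, against 371, 451 and 459% in control files (difference 0.48 ± 0.13, adjusted p = 0.0585). Ift56 (formerly Ttc26), Ift25, Ift81 and Ift74 differed by 0.37, 0.27, 0.22 and 0.20 on the log2 scale. Ift20, the subunit that also resides at the Golgi, differed the other way, with 113, 100 and 100% in H/R files and 139, 122 and 123% in control files (-0.29 ± 0.12, adjusted p = 0.15). Every H/R file of Ift20 lay below every control file, the reverse of the 6 that rose. The only IFT-A gene measured, Ift43, had 418, 409 and 411% in H/R files, against 411, 454 and 459% in control files, and its groups overlapped (difference -0.07 ± 0.10, adjusted p = 0.655). Iftap, whose product associates with IFT, differed by 0.28 (adjusted p = 0.114). Ift172, Ift122, Ift140, Ttc21a and Ttc21b were not analysed here.

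Of the 5 BBSome subunit genes, 2 rose, against 16.2% of all coding genes tested. In all 5 every H/R file lay above every control file, against 38.2% of coding genes. Bbs4 had 124, 129 and 129% in H/R files, against 82.4, 88.3 and 89.5% in control files, and rose by 0.57 ± 0.10 (adjusted p = 0.0195). Bbs2 had 171, 176 and 171% in H/R files, against 123, 111 and 112% in control files, and rose by 0.55 ± 0.10 (adjusted p = 0.0225). Both changes were close to 1.5-fold, and both genes are mutated in human Bardet-Biedl syndrome. Bbs5, Bbs1 and Bbs7 differed by 0.32, 0.22 and 0.16 and did not pass (adjusted p = 0.193, 0.148 and 0.332). Bbs10, which encodes a chaperonin-like factor for BBSome assembly, had overlapping groups, with 77.6, 91.9 and 91.5% in H/R files and 65.0, 83.2 and 82.7% in control files (0.20 ± 0.16, adjusted p = 0.407). Arl13b, the GTPase used as a marker of the ciliary membrane, had 105, 125 and 125% in H/R files, against 119, 119 and 120% in control files (-0.06 ± 0.12, adjusted p = 0.725). Tctn2, a tectonic of the transition zone at the base of the cilium, had 15.5, 16.1 and 15.9% in H/R files, against 18.5, 14.7 and 14.8% in control files (-0.07 ± 0.14, adjusted p = 0.736). Neither of these separated the groups.

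**Figure D2:**
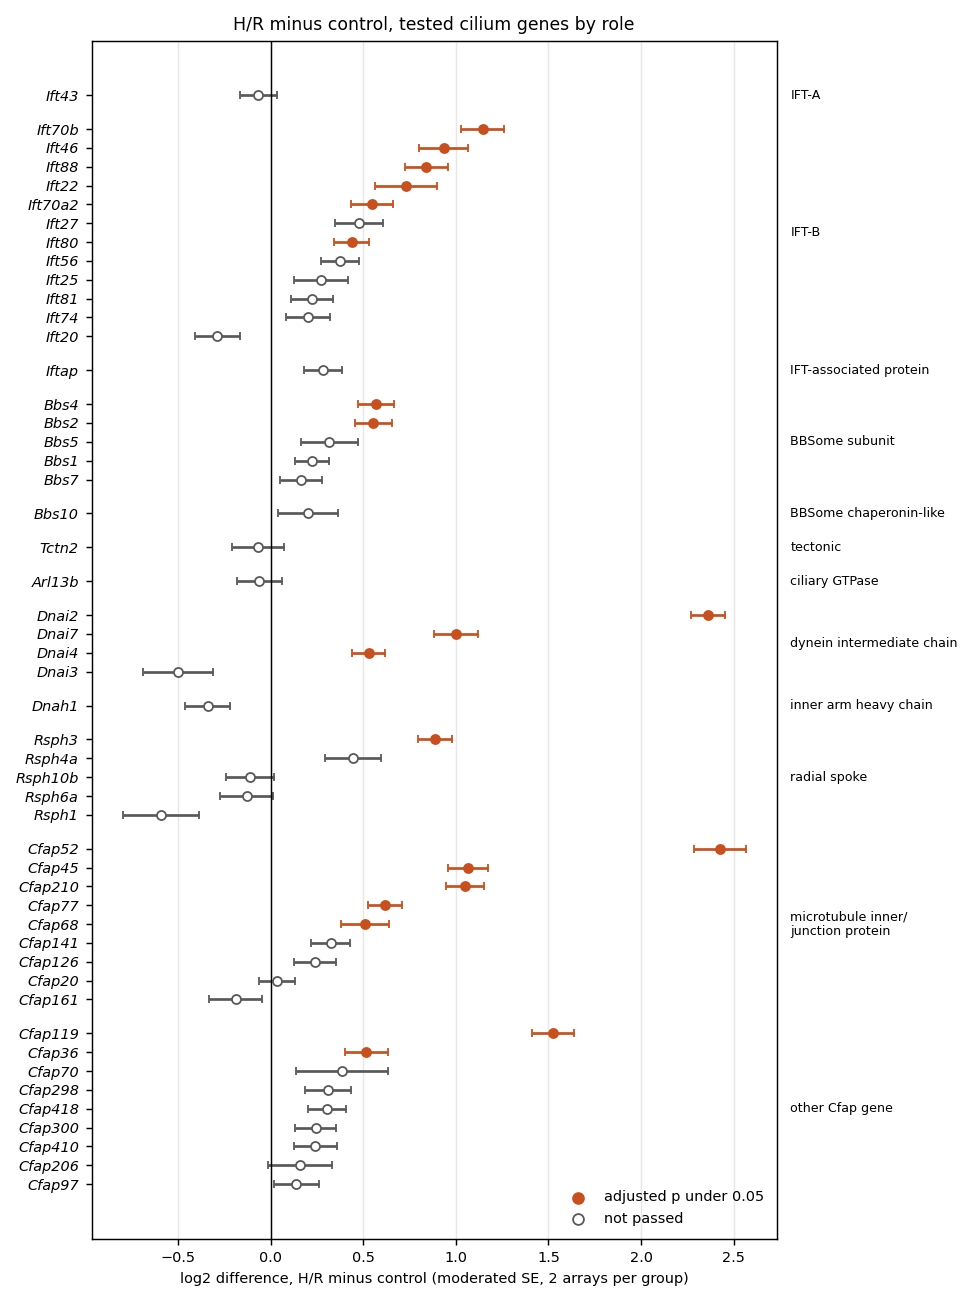
Fitted log2 difference, H/R minus control (horizontal axis), for the 50 tested cilium genes, grouped by role from top to bottom, with bars of the moderated SE from 2 arrays per group. Filled points mark the 19 genes past the threshold, all to the right of 0, and open points the other 31.

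The 28 remaining genes tested are the dynein, radial spoke, inner or junction protein and other Cfap genes. They were grouped as a remainder, and some, such as Cfap36, are not known as axoneme parts. Of these 28, 11 rose and 0 fell, against 8 and 0 of the 22 genes of transport, BBSome and ciliary gate. Medians of these groups were 0.32 and 0.30 on the log2 scale. Of all coding genes tested, 16.2% rose and 9.62% fell. The intermediate chains anchor and regulate dynein motors, and 3 of the 4 tested rose, against 16.2% of coding genes. This role group was drawn up after values were seen. Dnai2, an outer-arm intermediate chain, had 56.0, 57.6 and 58.0% in H/R files, against 10.9, 11.2 and 11.2% in control files. The files of each group lay close together and far from the other group. Dnai2 rose by 2.36 ± 0.09, or 5.14-fold (adjusted p = 0.00158). Its partner in the outer arm, Dnai1, was not tested and had 0.478, 0.679 and 0.635% in H/R files, against 0.254, 0.282 and 0.331% in control files, well above background in 2 of 3 H/R files and 0 of 3 control files. Set against the dimmest well-above-background signal of the control arrays, the H/R signal of Dnai1 gave a ratio of 1.12. For this ratio the mean of the H/R arrays was divided by the mean of, on each control array, the higher of that dimmest signal and the probe's own. Probes not well above background can read brighter than that dimmest signal. Gad1 did so with 0.787% in control replicate 3, above every H/R file of Dnai1. The ratio is therefore no lower bound, and a rise of Dnai1 is not established.

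The promoters of this pair are shown because both hold a loose spelling of the X-box, the element bound by RFX transcription factors that regulate many cilium genes. The spelling searched was GTNNCC, 0 to 3 further bases and NGNAAC, on both strands, and capitals mark the match, which in both promoters reads on the strand opposite to the one printed. Sequences are RefSeq's for GRCr8, 5′ to 3′ on the gene's strand, and cover the 250 bases before the annotated start. The window of Dnai2 is chr10:100258772-100259021 on the plus strand and its match begins 62 bases before the start. That of Dnai1 is chr5:61525829-61526078 on the plus strand, with the match beginning 99 bases before the start.
Dnai2: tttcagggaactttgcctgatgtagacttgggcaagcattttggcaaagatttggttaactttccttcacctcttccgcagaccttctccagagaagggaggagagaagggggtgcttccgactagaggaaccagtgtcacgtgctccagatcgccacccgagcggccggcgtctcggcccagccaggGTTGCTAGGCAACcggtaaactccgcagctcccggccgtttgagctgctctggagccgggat
Dnai1: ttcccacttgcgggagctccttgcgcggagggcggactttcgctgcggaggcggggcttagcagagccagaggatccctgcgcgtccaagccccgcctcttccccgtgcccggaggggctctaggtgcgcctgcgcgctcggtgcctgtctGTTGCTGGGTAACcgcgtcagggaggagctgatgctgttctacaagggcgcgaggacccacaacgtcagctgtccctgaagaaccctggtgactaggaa

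Over windows of 250 bases before to 50 after the start, 45 of the 58 genes had a sequence in RefSeq's table, and 8 of these (17.8%) held the loose spelling, against 5.09% of all 33469 promoters. It stood in 4 of the 16 promoters of genes that rose and in 4 of the 29 of genes that did not pass or were not tested. A stricter spelling, GTTNCC, 0 to 3 bases and GGNAAC, stood in 1 of 45 (2.22%), that of Cfap298, against 0.902% of all. The 33469 promoters outnumber the 13888 coding genes with a symbol on the array and were not matched to the 45 genes in gene class or base composition. Whether the gap between these shares belongs to cilium genes was therefore not tested. A match is a run of letters and not a shown binding site. Windows of 30 bases around the other matches, with the match in capitals, let their spellings be compared. Those of Cfap45, Ift56 and Cfap95 read on the opposite strand, and those of Cfap298 on both. The first 3 belong to genes that rose and the rest to genes that did not pass or, for Cfap95, were not tested. They lie at chr12:25405496-25405525, minus strand (Ift22), chr13:87521810-87521839, plus strand (Cfap45), chr3:81308886-81308915, minus strand (Ift70a2), chr11:43677592-43677621, minus strand and chr11:43677453-43677482, minus strand (Cfap298), chr4:68057576-68057605, plus strand (Ift56) and chr1:230669473-230669502, minus strand (Cfap95).
Ift22: tgttcccgGTCGCCGTGGAAACcgatcagc
Cfap45: gggtcttgGTTGCTGTGGTAACgcgtcagc
Ift70a2: gttggcttGTGGCCTTGGAAACaagcacac
Cfap298 upstream: gggtttcgGTTGCCCGGGCAACagctactt
Cfap298 near the start: gtttgactGTTGCCCTTGGCAACagtcact
Ift56: ccggcggcGTTGCCGTGGAGACggagctct
Cfap95: cctcctagGTTTCTTAGGAGACaagagacg

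Of the other intermediate chains, Dnai7, formerly Casc1, had 34.8, 29.4 and 29.4% in H/R files, against 16.2, 15.9 and 15.9% in control files. It rose by 1.00 ± 0.12 (adjusted p = 0.00815), with the groups well apart. Dnai4, an inner-arm intermediate chain, had 8.98, 8.81 and 9.37% in H/R files, against 6.22, 6.38 and 6.23% in control files, and rose by 0.53 ± 0.09 (adjusted p = 0.0188). Dnai3, the other inner-arm chain, went against these. It had 46.2, 39.8 and 40.2% in H/R files, against 71.7, 51.0 and 52.1% in control files, with every H/R file below every control file (-0.50 ± 0.19, adjusted p = 0.12). Dnah1, an inner-arm heavy chain, had 4.37, 3.94 and 3.92% in H/R files, against 5.65, 4.87 and 4.88% in control files, again with no overlap (-0.34 ± 0.12, adjusted p = 0.109). In both of these genes the first array of each group was its group's highest. Dnah5, Dnah9 and Dnah11 were not analysed here.

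Microtubule inner and junction proteins line or join the doublet microtubules. Of 9 tested genes 5 rose and none fell, against 16.2% and 9.62% of coding genes, and the median was 0.51. This role group was drawn up after values were seen, and the 5 include Cfap52, so the count is a description only. Cfap52 had 3.54, 3.12 and 3.15% in H/R files, against 0.561, 0.650 and 0.719% in control files. It was well above background in 1 of 3 control files and was tested only because the H/R files were bright, so its fitted 5.37-fold difference (adjusted p = 0.00205) rests on a control signal near background and its size is uncertain. The files of the groups did not overlap. Cfap45 had 4.58, 5.19 and 5.27% in H/R files, against 2.39, 2.36 and 2.23% in control files, and rose by 1.06 ± 0.11 (adjusted p = 0.0061). Cfap210 had 2.62, 2.47 and 2.42% in H/R files, against 1.18, 1.31 and 1.24% in control files, and rose by 1.05 ± 0.10 (adjusted p = 0.00538). All files of these 2 genes were well above background, and their groups lay about 2-fold apart. Cfap77 had 7.80, 8.04 and 7.74% in H/R files, against 5.02, 5.19 and 5.27% in control files, a rise of 0.61 ± 0.09 (adjusted p = 0.0138). Cfap68 had 1.49, 1.47 and 1.26% in H/R files, against 0.915, 1.04 and 1.15% in control files, a rise of 0.51 ± 0.13 (adjusted p = 0.0479). The lowest H/R file of Cfap68 was close to its highest control file, and its call was lost with each other scaling tried, with replicate 3 alone and in the authors' value table (adjusted p = 0.0686 to 0.2). Cfap141, Cfap126, Cfap20 and Cfap161 differed by 0.32, 0.24, 0.03 and -0.19 and did not pass. Cfap20, of the inner junction of the doublet, had 1044, 1052 and 1050% in H/R files, against 981, 1065 and 1071% in control files, and its groups overlapped (adjusted p = 0.822).

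Radial spokes link the doublets to the central pair, and 1 of 5 tested genes rose, close to the 16.2% of coding genes. Rsph3 had 6.03, 6.27 and 6.22% in H/R files, against 3.37, 3.27 and 3.26% in control files, and rose by 0.89 ± 0.09 (1.85-fold, adjusted p = 0.00615). Rsph1, a spoke-head gene, had 277, 239 and 246% in H/R files, against 473, 325 and 323% in control files. Its H/R files all lay below its control files, but control array 1 stood well above the other control array, and the difference of -0.59 ± 0.21 did not pass (adjusted p = 0.102). Rsph4a, of the spoke head too, had 0.933, 0.726 and 0.713% in H/R files, against 0.609, 0.759 and 0.467% in control files, overlapping and mostly at background in control files (0.44 ± 0.15, adjusted p = 0.0949). Rsph10b and Rsph6a differed by -0.11 and -0.13. Rsph9, not tested, had 0.526, 0.574 and 0.561% in H/R files, against 0.428, 0.517 and 0.458% in control files. It was well above background in 2 of 3 H/R files and 0 of 3 control files. The ratio described for Dnai1 was 1.06 for Rsph9 and is no lower bound here either, so a rise is not established.

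The 9 other Cfap genes tested had a median of 0.31, and 2 of them rose, close to the 16.2% of coding genes. Cfap119, formerly Ccdc189, had 16.7, 15.8 and 16.1% in H/R files, against 6.08, 5.14 and 5.43% in control files, and its groups were clearly separate. It rose by 1.53 ± 0.11, or 2.88-fold (adjusted p = 0.00313). Cfap36, whose product binds the ciliary GTPase Arl3, had 286, 282 and 286% in H/R files, against 184, 217 and 216% in control files, and rose by 0.51 ± 0.12 (adjusted p = 0.037). The remaining 7, from Cfap70 at 0.38 to Cfap97 at 0.14, all differed upwards and did not pass.

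**Figure D3:**
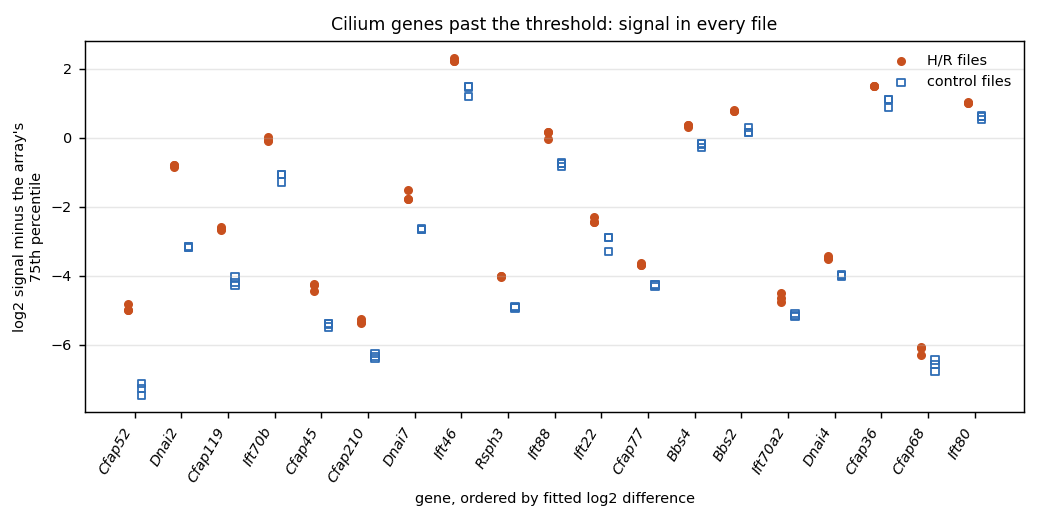
Signal of the 19 cilium genes past the threshold in every file, as log2 signal minus the array's 75th percentile (vertical axis), ordered by fitted difference (horizontal axis), with H/R files as filled circles to the left of control files as open squares. In each gene the H/R files lie above the control files (for Cfap68 the lowest H/R file is at 1.26% and the highest control file at 1.15% of the 75th percentile, before the log).

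The calls rest on few arrays, and with an array left out fewer of all 15899 probes passed as well. Leaving out the arrays of a group in turn, 8 of the 19 genes passed each time, namely Cfap52, Dnai2, Cfap119, Ift70b, Cfap45, Cfap210, Dnai7 and Rsph3. The other 11 lost the call at least once and included both BBSome genes and every IFT-B gene that rose except Ift70b. The number that rose was 9 without H/R array 1, 8 without H/R array 2, 11 without control array 1 and 16 without control array 2, and the single array left is then assumed to vary like the other group. Leaving out arrays kept the filter that Cfap52 passed through the H/R group alone, and its control signal near background. It therefore does not test the call of Cfap52. All 19 genes kept their sign in every setting in which they were fitted. Scaling arrays to their median, which put the median of all probes at -0.06 on the log2 scale, against 0.07, left 14 genes higher and made Dnah1 and Rsph1 lower. The 5 that lost the call were Cfap36, Cfap68, Ift22, Ift70a2 and Ift80, of which Cfap68, Ift22 and Ift70a2 lost it with quantile scaling and in the authors' value table too. It also turned the share of all called probes that were higher to 41.0%, against 62.6% with the 75th percentile over probes and 53.8% with quantile scaling. With normexp background correction 0 of 15899 probes passed, so 0 of these genes did, while 9 of them were higher at an unadjusted p under 0.05 in limma.

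**Figure D4:**
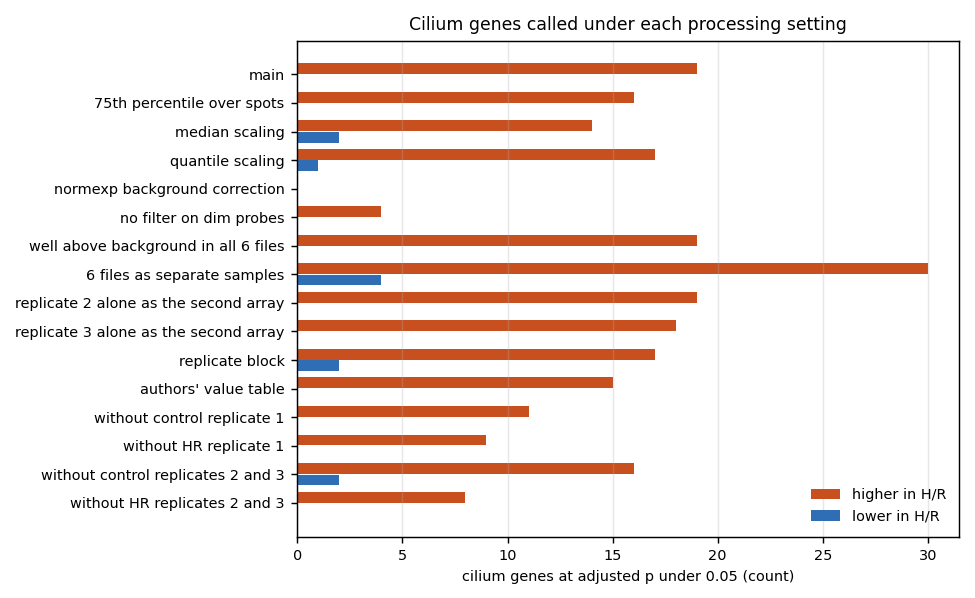
Number of cilium genes past an adjusted p of 0.05 (horizontal axis), higher or lower in H/R, under each way of processing the arrays (rows, the reported one on top). Counts of higher genes lie between 0 with normexp and 30 with the 6 files as separate samples, and counts of lower genes between 0 and 4.

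Other genes of the cilium, named outside these symbol families, were listed by function, and their counts can be read against the 16.2% of coding genes that rose and the 9.62% that fell. Among 8 transport and BBSome genes the median was 0.17, and 2 rose, namely Lztfl1, a BBSome regulator, by 0.55 and Rabl2, an IFT-B-binding GTPase, by 0.50 on the log2 scale. Of 7 kinesin-2 and dynein-2 motor genes 3 rose, with a median of 0.15: Kif3c, Dync2i2 and the dynein-2 heavy chain Dync2h1 by 0.57, 0.54 and 0.48. Of 13 transition-zone genes 4 rose, with a median of 0.12, and these were Invs by 0.74, Tmem67 by 0.64, Ahi1 by 0.54 and Rpgr by 0.52. The 12 basal body genes had a median of 0.11, and 2 rose and 1 fell, close to those shares. Cep131 rose by 0.92 and Cep97, which restrains cilium formation, by 0.45, while Cep83, which anchors the basal body to the membrane, fell by 0.39. For cilium disassembly 1 of 5 rose, the scaffold gene Nedd9 by 0.59, with a median of -0.02.

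Ciliary signalling genes had a median of 0.07, with 0 of 8 past the threshold. Smo, the Hedgehog signal transducer, had 3.26, 3.35 and 3.50% in H/R files, against 3.45, 1.71 and 1.72% in control files (0.46, adjusted p = 0.36). Ptch1, a Hedgehog target and receptor, had 1.16, 0.671 and 0.728% in H/R files, against 4.45, 0.372 and 0.794% in control files, of which 1 of 3 was well above background, and did not pass (adjusted p = 0.591). Both genes had 1 control array far from the other, and their groups overlapped. Gli1 was not analysed here.

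Genes of motile-cilium assembly and other axoneme parts had 7 of 16 higher and 2 lower, with a median of 0.40. Ak7, an adenylate kinase of motile cilia, had 106, 90.2 and 90.0% in H/R files, against 29.3, 29.9 and 29.7% in control files, and rose by 1.72 (adjusted p = 0.00269). The dynein assembly factors Dnaaf1 and Dnaaf4 rose by 1.04 and 0.85, and Gas8, of the nexin-dynein regulatory complex, by 0.74. Against these, Dnaaf11 fell by 0.55 and Ccdc40, which with Ccdc39 sets the repeat length of the axoneme, by 0.81, the last with 2 of 3 H/R files well above background. Of 4 RFX genes tested, Rfx5 and Rfx7 rose by 0.79 and 0.53, whereas Rfx1 and Rfx2, which regulate cilium genes, differed by 0.20 and 0.33 and did not pass (adjusted p = 0.171 and 0.184). Foxj1, the master regulator of motile cilia, Rfx3 and Kif3a were not analysed here.

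**Figure D5:**
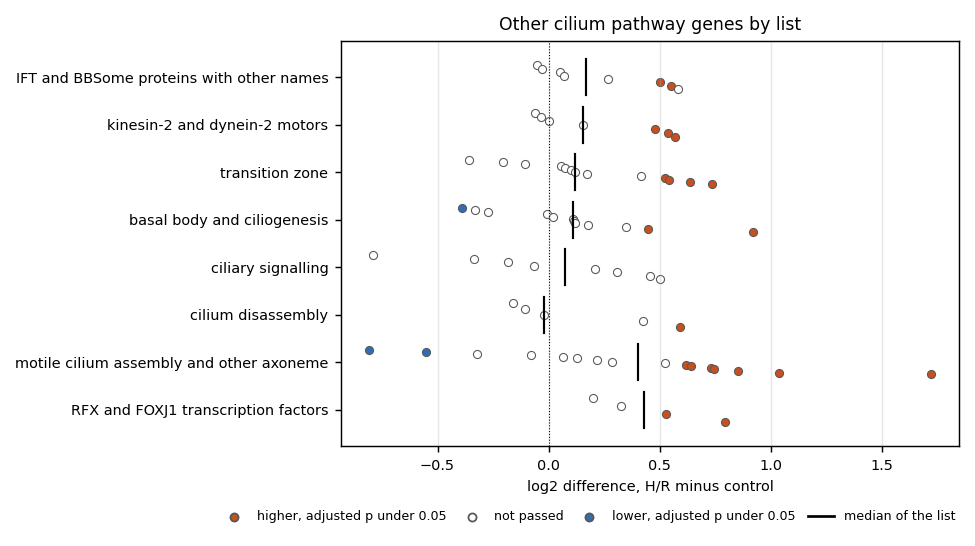
Fitted log2 difference, H/R minus control (horizontal axis), of tested genes in 8 other cilium lists (rows), with each list's median as a vertical bar. Medians lie between -0.02 for disassembly and 0.43 for RFX factors, and the highest point is Ak7 at 1.72.

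Markers of cells that the RNA could hold were read on the same arrays. Of 11 muscle-line markers on the array, 10 were well above background in all 6 files. Among the 11 markers 2 rose, Tnnt2 and Chrna1, and 1 fell, Myod1, close to the 16.2% and 9.62% of all coding genes tested. Their summed signal was 3657 to 3886% of the 75th percentile in H/R files and 3146 to 3626% in control files. Vim gave the largest part of each sum. It had 2035, 2033 and 2047% in H/R files, against 1405, 1695 and 1712% in control files, and did not pass (adjusted p = 0.0828). The sums therefore say little about the other markers. Tnnt2, cardiac troponin T, rose by 1.13, and Myod1, the myoblast determination factor, fell by 1.48 on the log2 scale. Des had 72.4, 272 and 278% in H/R files, against 76.1, 96.2 and 102% in control files. Its H/R arrays lay far apart, and it did not pass (adjusted p = 0.454). Chrna1, an acetylcholine receptor subunit of muscle, was well above background in 3 of 3 H/R files and 0 of 3 control files. It was tested only because the H/R files were bright, and limma's adjusted p of 0.0328 rests on control signals at or near background. The ratio described for Dnai1 was 1.83 for Chrna1, is no lower bound, and leaves the size of the difference uncertain.

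Of 4 multiciliated-cell markers on the array, Sntn was well above background in 0 files. Tekt1, a tektin of motile axonemes, had 0.995, 0.922 and 0.882% in H/R files, against 0.182, 0.160 and 0.154% in control files. It was well above background in 3 of 3 H/R and 0 of 3 control files. The ratio described for Dnai1 was 1.90 for Tekt1 and is no lower bound. Tekt1 was tested only because the H/R files were bright, and limma's adjusted p of 0.00183 rests on control signals at background. Tppp3 differed by 0.40 (adjusted p = 0.059). Deup1 lacked a usable spot in 1 control file and was not tested, with 34.0, 28.7 and 28.3% in H/R files and 36.0 and 37.5% in the other control files. The summed signal of the 3 markers with a value in every file was 5.82 to 6.36% in H/R files and 3.74 to 4.25% in control files. Tppp3 gave most of it, with 4.66, 5.21 and 5.16% in H/R files and 3.89, 3.71 and 3.44% in control files. Of 8 brain markers on the array, 4 were well above background in 0 files. Gfap, an astrocyte filament gene, and Mbp, a myelin gene, were so in all 6 files. Neither passed, with log2 differences of -0.07 and 0.45 (limma adjusted p = 0.686 and 0.065). The part of any such cells in the changes of the cilium genes was not tested.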

How the data were processed

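RNA was depleted of ribosomal RNA and labelled with Cy3 by random priming, per the labels' protocols. The authors read the spots with Agilent Feature Extraction 11.0.1.1, per the submitters' processing notes and the file headers. The deposited processed intensity is corrected for background within each array, per the file headers. Other deposited columns are flags that mark outlier spots and spots well above background. The authors also deposited log2 values for 16841 probes, with medians of 9.182 to 9.187 per file, and the sources used here do not give their normalization; they served as an alternative.

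Outlier and control spots were dropped, probes averaged over spots on the log2 scale, and each array's 75th percentile over probes subtracted. Replicates 2 and 3 were averaged, and H/R was compared with control in limma 3.58.1 (lmFit, eBayes, two-sided, Benjamini-Hochberg) in R 4.3.3, with 2 residual and 2.86 prior degrees of freedom, after a check on simulated data. The simulated arrays varied independently and few of their probes changed. That check therefore does not cover slide position or changes in as many probes as here. An exact permutation test of 2 against 2 arrays cannot go below 0.333. Python 3.11.15, pandas 2.3.3 and matplotlib 3.10.9 were used for reading and plotting. Symbols were matched by unversioned accession to the GRCr8 table, which named 14274 of 15323 coding probes. Normexp (offset 50) used the median and background median signals, since the files hold no mean signal. Same-numbered arrays deviated together at r = 0.153 across 15899 probes, over only 2 pairs.

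The genes, lists and tests were chosen with earlier results of these data known. Role groups of the dynein, spoke, inner-protein, other Cfap and Iftap genes were drawn up after values were seen. Named were all genes past the threshold, a set fixed by name, those with the highest mean signal and partly detected ones, and up to 4 genes per other list, and further genes of a role group were named with their values afterwards. Alternatives changed the scaling, background correction, filter, scans, block and arrays, and the scaling by spots was added after seeing the data. One marker result is not reported here.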

Additional observations from a re-analysis of the deposited data

How the results depend on the processing

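The count of 19 cilium genes that rose lay within 1.5 times under most settings, and became 0 with normexp, 4 without the filter on dim probes and 30 with the 6 files as separate samples. Leaving out arrays gave 8 to 16 higher and 0 to 2 lower. The count of 0 lower became 2 with median scaling (Dnah1 and Rsph1), 1 with quantile scaling (Dnah1), 4 with separate files and 2 with the replicate block (Dnai3 and Rsph1), in which 17 were higher (Cfap68 and Ift22 lost the call). The numbers of only 2 pairs of arrays do not show that they pair the samples. The median log2 difference of 0.31 was 0.26 with the percentile taken over spots, 0.18 with median scaling, 0.27 with quantile scaling, 0.51 with normexp, 0.27 in the authors' value table and 0.24 to 0.39 without single arrays. Among all probes 3769 changed, against 0 with normexp (2110 at an unadjusted p under 0.05 in limma), 594 without the filter, 8309 with separate files and 1008 to 2702 without single arrays.

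Of 492 values of 31 named genes under other settings, 387 kept direction and side of the threshold, 84 lost the call, 13 gained it and 8 turned sign, all of genes not called. Cfap20 was at -0.0147 with the percentile over spots, -0.0942 with median scaling, -0.0372 with normexp and between -0.0283 and 0.0951 without single arrays. Dnah1 was at 0.56 and Tctn2 at 0.34 with normexp. Without single arrays Tctn2 lay between -0.236 and 0.0954 and Arl13b between -0.190 and 0.0634. The cause was not tested. Averaging the probes of a gene gives the same values, since each of these genes had 1 probe. Its values are among the 387 by construction. The number of arrays, and for Cfap52, Rsph4a, Ptch1, Tekt1 and Chrna1 a control signal at or near background, limits these values.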
